A study of Mus musculus with 26 samples.

Results

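The genes described are 40 members of the cell division programme, chosen by symbol as rows of the deposited count table, which lists 35976 genes. Of these, 10 serve DNA replication (Mcm2 to Mcm7, Pcna, Rrm1, Rrm2 and Tyms) and 30 serve mitosis and its control, and the table held every one of them. They were measured by bulk RNA sequencing in 20 libraries of mouse liver tumours and 6 of control liver. Cyp1a2_CA tumours (10 libraries, 9 animal numbers) carried Cyp1a2-CreERT2, Ctnnb1(ex3)fl/+ and Arid2fl/fl. Gls2_CA tumours (9 libraries, 5 animal numbers) carried Gls2-CreERT2 with the same Ctnnb1 and Arid2 alleles. The Cyp1a2_C tumour (1 library, CB6-L) carried Cyp1a2-CreERT2 and Ctnnb1(ex3)fl/+ with no Arid2 allele in its label. WT livers (6 libraries) came from wild-type mice given Cre by an adeno-associated virus and kept on normal chow for up to 12 months. CreERT2 is a recombinase that works only with tamoxifen, which tumour mice received on postnatal day 28 before follow-up of 6 to 12 months. The Cyp1a2 promoter is active in hepatocytes around the central vein and the Gls2 promoter in those around the portal vein. Loss of Ctnnb1 exon 3 stabilises beta-catenin, and Arid2 is part of PBAF, which remodels chromatin. Tumour mice were a C57BL/6J and Swiss Webster mix and WT mice were C57BL/6J, so that strain, virus, tamoxifen and tumour cannot be told apart in any comparison with WT.

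In a dividing cell, replication genes are switched on at the entry to S phase, mainly by E2F transcription factors. Genes for mitosis follow later, when the MuvB complex joins B-Myb and then FOXM1 at promoters with a cell cycle genes homology region (CHR). In resting cells the same complex, with p130 or p107 and a repressing E2F, keeps both sets low, and adult hepatocytes are mostly in that state.

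The 30 mitosis genes were higher in tumours than in WT liver and the 10 replication genes, as a class, were not. In Cyp1a2_CA tumours 30 of 30 mitosis genes rose (median log2 fold change 3.60), while 3 replication genes rose, 3 fell and 4 did not pass the test, with a median of -0.17. In Gls2_CA tumours 25 of the 26 mitosis genes that passed the filter on low counts rose, with a median of 2.98, and the replication genes again divided into 3 that rose, 3 that fell and 4 that did not pass, with a median of -0.16. Some mitosis genes had few counts per WT library (Bub1 0 to 6, Nuf2 1 to 6 and, tested in Cyp1a2_CA only, Ccnb1 0 to 4). Such genes passed the filter through the tumours alone and could hardly have been called lower, so these counts of rises partly follow from the filter. Over all 16841 genes tested in Cyp1a2_CA against WT, 70.9% were called (38.3% higher and 32.7% lower) and the median was 0.17. In Gls2_CA against WT 73.2% of 14976 genes were called (39.2% higher and 34.0% lower) and the median was 0.14. The same 3 replication genes rose in both comparisons (Mcm5, Mcm7 and Tyms) and the same 3 fell (Pcna, Rrm1 and Rrm2). Both comparisons use the same 6 WT livers, so they are not separate evidence. A call means an adjusted p under 0.05 in edgeR's quasi-likelihood test with Benjamini-Hochberg adjustment over all genes, with libraries of 1 animal number summed. All adjusted p-values come from that test. Because these are bulk tissues, fewer cells of a type and less RNA per cell cannot be told apart.

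**Figure D1:**
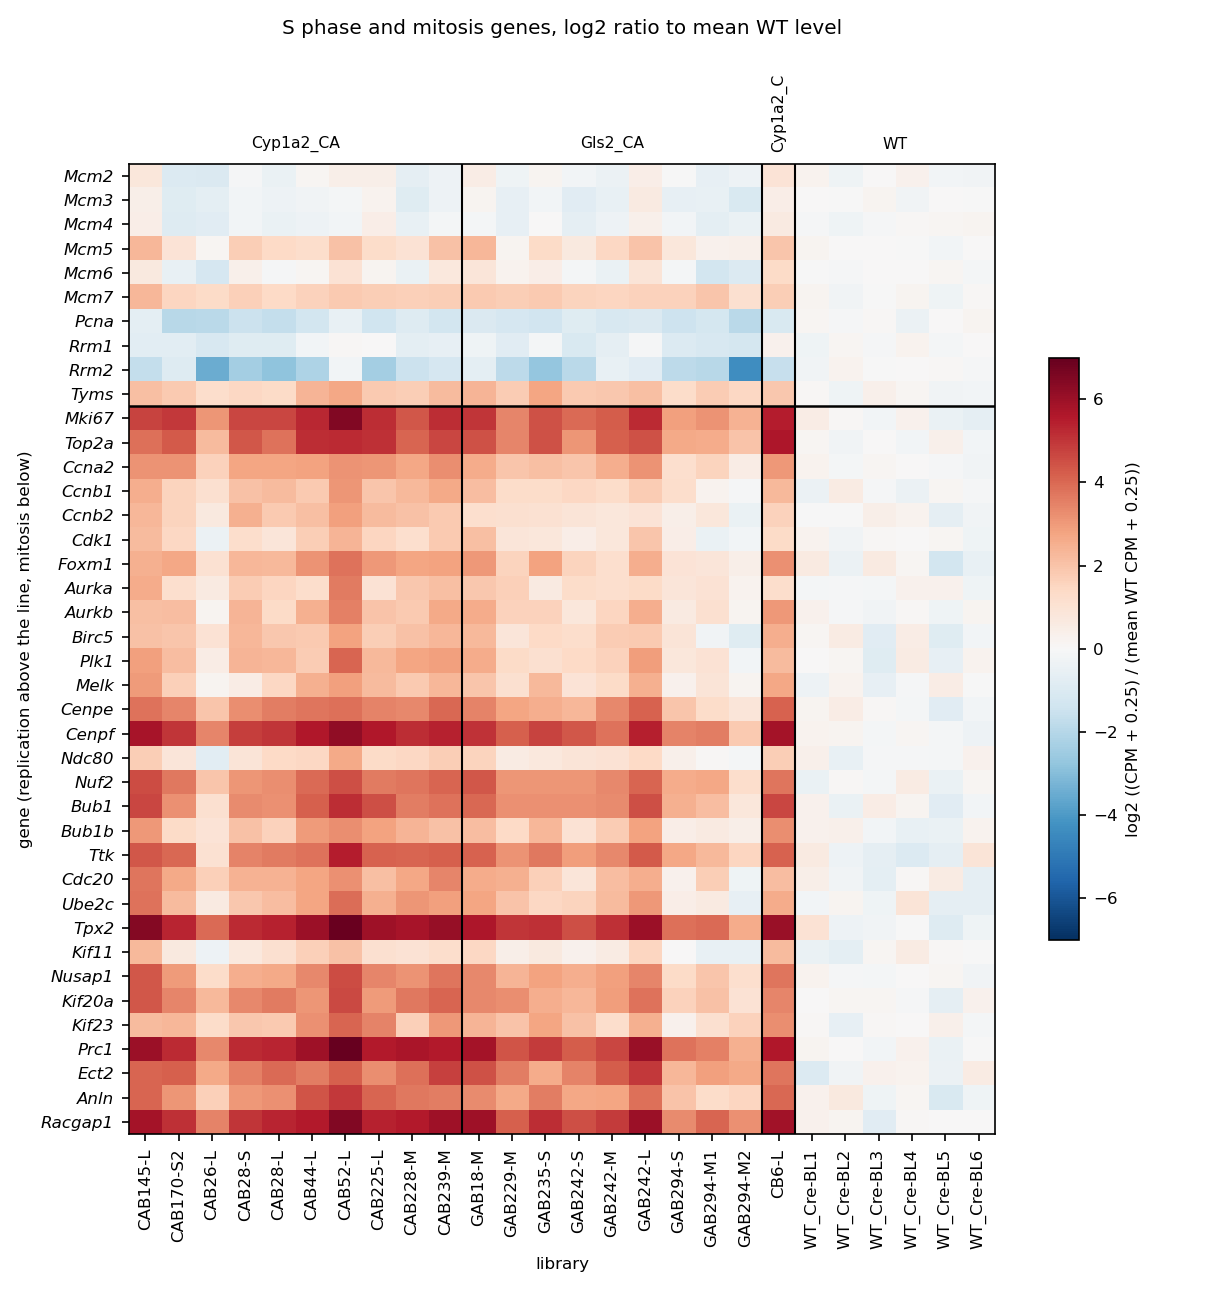
Colour shows the log2 ratio of each gene's CPM to its mean in WT, with 0.25 CPM added to both, for the 40 genes (rows, replication above the line and mitosis below) in the 26 libraries (columns, grouped as Cyp1a2_CA, Gls2_CA, Cyp1a2_C and WT). The mitosis rows are red across most tumour libraries and palest in CAB26-L and the GAB294 libraries, while the replication rows hold both red (Mcm5, Mcm7, Tyms) and blue (Pcna, Rrm2).

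Total counts per library were 37051941 to 49254470 in Cyp1a2_CA, 36992043 to 42865787 in Gls2_CA, 41038144 in Cyp1a2_C and 13486530 to 16975288 in WT, so that every WT library was shallower than every tumour library. In all, 4 libraries stood apart by the muscle gene Ttn: CAB44-L and CAB225-L of Cyp1a2_CA, GAB235-S of Gls2_CA and CB6-L had 8668 to 30170 CPM, against at most 92.9 CPM in the other tumour libraries and 2.21 CPM in WT. CPM are counts scaled by the TMM-adjusted library total, the usual unit of relative abundance. Without CAB44-L and CAB225-L the counts of called members in Cyp1a2_CA against WT were the same, and without GAB235-S Mcm4 was also called lower in Gls2_CA. Hepatocyte markers were present in every group, with summed levels of 9610 to 43039 CPM in Cyp1a2_CA, 3788 to 16794 CPM in Gls2_CA, 418 CPM in Cyp1a2_C and 70918 to 92590 CPM in WT, and none of the 8 was at 0 in any group.

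Promoters of 6 members are shown because the classes are known to be switched on through different elements. The window searched was 300 bases, from 250 before to 50 after each RefSeq gene start (GRCm38.p6, the assembly called mm10), and 34 of the 40 genes had one. Both strands were searched. An E2F match was TTCCCGC, the variant TTCGCGC, the variant TTGCCGC or the last variant searched, TTGGCGC, and such matches can overlap each other. A CHR match was TTTGAA, and the element bound by the factor NF-Y was searched as CCAAT. An E2F match stood in 6 of 9 replication genes (66.7%), 4 of 25 mitosis genes (16.0%) and 10.9% of 27025 genes in the promoter table. A CHR match stood in 1 of 9 replication genes (11.1%), 18 of 25 mitosis genes (72.0%) and 20.2% of all genes. CCAAT was common to both, in 8 of 9 (88.9%) and 19 of 25 (76.0%), against 41.1% of all genes. A match is only a run of letters and was not tested for binding.
The 250 bases before the start are printed 5′ to 3′ on the gene's strand, with E2F matches in capitals for 3 replication genes that moved differently in the tumours (Mcm5 rose, Mcm6 did not pass, Rrm2 fell) and CHR matches, plus E2F matches in Cdk1, for 3 mitosis genes. They lie at chr8:75109259-75109508 (plus strand) for Mcm5, chr1:128359706-128359955 (minus) for Mcm6, chr12:24708004-24708253 (plus) for Rrm2, chr11:99024190-99024439 (minus) for Top2a, chr2:164769679-164769928 (plus) for Ube2c and chr10:69352913-69353162 (minus) for Cdk1.
Mcm5: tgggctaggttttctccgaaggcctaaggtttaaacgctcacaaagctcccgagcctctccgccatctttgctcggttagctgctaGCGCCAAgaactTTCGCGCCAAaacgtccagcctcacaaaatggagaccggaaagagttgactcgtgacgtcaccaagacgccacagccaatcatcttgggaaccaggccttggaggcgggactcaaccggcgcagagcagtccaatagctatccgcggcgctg
Mcm6: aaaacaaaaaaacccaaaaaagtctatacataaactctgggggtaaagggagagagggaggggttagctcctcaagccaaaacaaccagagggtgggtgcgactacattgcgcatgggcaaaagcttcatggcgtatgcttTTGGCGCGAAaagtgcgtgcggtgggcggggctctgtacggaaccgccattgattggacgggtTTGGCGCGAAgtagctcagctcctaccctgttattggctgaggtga
Rrm2: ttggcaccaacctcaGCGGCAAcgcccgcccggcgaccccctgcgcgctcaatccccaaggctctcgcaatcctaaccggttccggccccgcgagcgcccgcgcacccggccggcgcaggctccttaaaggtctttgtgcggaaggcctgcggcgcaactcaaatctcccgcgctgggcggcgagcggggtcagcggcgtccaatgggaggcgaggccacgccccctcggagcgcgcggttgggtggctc
Top2a: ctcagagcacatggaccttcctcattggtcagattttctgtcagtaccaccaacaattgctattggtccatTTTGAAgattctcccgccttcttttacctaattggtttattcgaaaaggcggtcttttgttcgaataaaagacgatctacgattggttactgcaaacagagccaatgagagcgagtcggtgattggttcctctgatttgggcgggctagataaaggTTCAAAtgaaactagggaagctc
Ube2c: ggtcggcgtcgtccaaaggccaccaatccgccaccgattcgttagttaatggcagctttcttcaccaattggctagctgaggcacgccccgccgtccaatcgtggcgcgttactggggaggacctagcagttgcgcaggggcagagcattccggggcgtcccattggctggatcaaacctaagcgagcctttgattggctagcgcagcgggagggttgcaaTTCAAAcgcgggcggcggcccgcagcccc
Cdk1: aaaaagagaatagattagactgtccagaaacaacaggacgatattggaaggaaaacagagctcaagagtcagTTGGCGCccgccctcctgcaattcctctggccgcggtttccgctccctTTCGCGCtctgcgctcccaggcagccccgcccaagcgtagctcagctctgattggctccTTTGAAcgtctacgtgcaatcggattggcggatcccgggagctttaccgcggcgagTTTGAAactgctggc
Mcm6 has 4 E2F matches before the start, of which those at -109 and -106 overlap, as do those at -46 and -43. Mcm5 has 3, of which those at -152 and -149 overlap. Rrm2 has 1, far from its start at position -235. The CHR of Ube2c lies at -29 and those of Top2a at -179 and -23, while Cdk1 has both kinds, with E2F at -178 and -130 and CHR at -71 and -15.

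The MCM genes encode the 6 subunits of the replicative helicase, which is loaded on origins as 1 ring, and they did not move as 1 unit. Mcm5 was at 3.92, 8.51 and 18.2 CPM (lowest, median and highest animal) in Cyp1a2_CA, at 18.5, 3.95, 8.86, 9.94 and 5.05 CPM in Gls2_CA (animals GAB18, GAB229, GAB235, GAB242 and GAB294, the order used throughout), and at 2.87, 3.43 and 3.84 CPM in WT. Every Gls2_CA animal lay above every WT animal, and the lowest Cyp1a2_CA animal stood next to the highest WT animal. It rose by 1.54 on the log2 scale in Cyp1a2_CA (SE 0.29, adjusted p = 0.00021) and by 1.35 in Gls2_CA (SE 0.34, adjusted p = 0.0035). Mcm7 was the steadier of the pair, at 21.8, 26.9 and 42.7 CPM in Cyp1a2_CA, 30.3, 28.5, 29.0, 25.1 and 25.03 CPM in Gls2_CA and 6.66, 8.34 and 9.504 CPM in WT. Neither tumour group overlapped WT, and it rose with log2 fold changes of 1.69 in Cyp1a2_CA (SE 0.16, adjusted p = 9.3e-08) and 1.66 in Gls2_CA (SE 0.13, adjusted p = 5.5e-07). Mcm7 shares 7.25% of its exon length with Ap4m1 on the opposite strand and 1.45% with Cops6, and the strand setting of the counting is not given in the sources used here. Ap4m1 itself had log2 fold changes of -0.09 in Cyp1a2_CA and -0.04 in Gls2_CA, and neither passed.

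The other 4 subunits did not pass in either comparison. Mcm2 was at 2.12, 3.62 and 7.90 CPM in Cyp1a2_CA, 6.44, 3.54, 4.97, 4.49 and 3.56 CPM in Gls2_CA and 3.55, 4.13 and 5.52 CPM in WT, with log2 fold changes of -0.09 in Cyp1a2_CA (SE 0.29, adjusted p = 0.79) and -0.02 in Gls2_CA (SE 0.22, adjusted p = 0.94). Mcm6 was at 3.40, 8.72 and 16.0 CPM in Cyp1a2_CA, 14.6, 9.55, 10.5, 9.18 and 4.64 CPM in Gls2_CA and 6.95, 7.78 and 8.56 CPM in WT, with 0.17 in Cyp1a2_CA (SE 0.28, adjusted p = 0.60) and 0.24 in Gls2_CA (SE 0.24, adjusted p = 0.37). For both, tumour animals lay on either side of the WT range, and the tumour spread was wider. Mcm3 and Mcm4 had log2 fold changes of -0.32 and -0.25 in Cyp1a2_CA and -0.33 and -0.31 in Gls2_CA, with adjusted p between 0.11 and 0.32.

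Among the genes of the clamp and of nucleotide supply, 3 of 4 fell. Pcna, the sliding clamp that holds polymerases on DNA, was at 4.26, 6.66 and 11.8 CPM in Cyp1a2_CA, 8.13, 7.44, 6.29, 8.29 and 5.67 CPM in Gls2_CA and 12.4, 17.0 and 19.1 CPM in WT. Every tumour animal was below every WT animal, and the log2 fold changes were -1.28 in Cyp1a2_CA (SE 0.22, adjusted p = 8.4e-05) and -1.30 in Gls2_CA (SE 0.15, adjusted p = 1.1e-05). Over all genes, 21.2% in Cyp1a2_CA and 26% in Gls2_CA had every tumour animal below every WT animal. Rrm2, the small subunit of ribonucleotide reductase, which makes deoxynucleotides, was at 0.898, 3.68 and 10.9 CPM in Cyp1a2_CA, 7.80, 3.34, 1.66, 6.24 and 2.13 CPM in Gls2_CA and 10.2, 12.3 and 14.3 CPM in WT. CAB52, the highest Cyp1a2_CA animal, reached the WT range and no other tumour animal did. Rrm2 fell, with -1.62 in Cyp1a2_CA (SE 0.40, adjusted p = 0.002) and -1.64 in Gls2_CA (SE 0.36, adjusted p = 0.0014). Its partner Rrm1, the large subunit, fell with -0.55 in Cyp1a2_CA (SE 0.19, adjusted p = 0.019) and -0.61 in Gls2_CA (SE 0.20, adjusted p = 0.018), and 3 Cyp1a2_CA and 2 Gls2_CA animals reached the WT range. The difference between Rrm1 and Rrm2 was not tested, and their order depended on the offset described below.

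Tyms, thymidylate synthase, moved against the rest of its group. It was at 9.33, 14.4 and 26.8 CPM in Cyp1a2_CA, 21.4, 14.1, 26.3, 15.5 and 11.4 CPM in Gls2_CA and 3.03, 3.63 and 4.99 CPM in WT. All tumour animals were above all WT animals, and it rose with log2 fold changes of 2.02 in Cyp1a2_CA (SE 0.24, adjusted p = 1.5e-06) and 2.16 in Gls2_CA (SE 0.25, adjusted p = 9.7e-06). A processed copy, Tyms-ps, is also in the table, so that its reads could have been divided between the copies. With an offset for exon length and GC, Mcm2 moved to -0.67 in Cyp1a2_CA and -0.60 in Gls2_CA and passed. Rrm1 moved to -1.44 in Cyp1a2_CA and -1.49 in Gls2_CA, then the lowest values of the class, below those of Rrm2. The class medians stayed at -0.19 in Cyp1a2_CA and -0.16 in Gls2_CA.

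**Figure D2:**
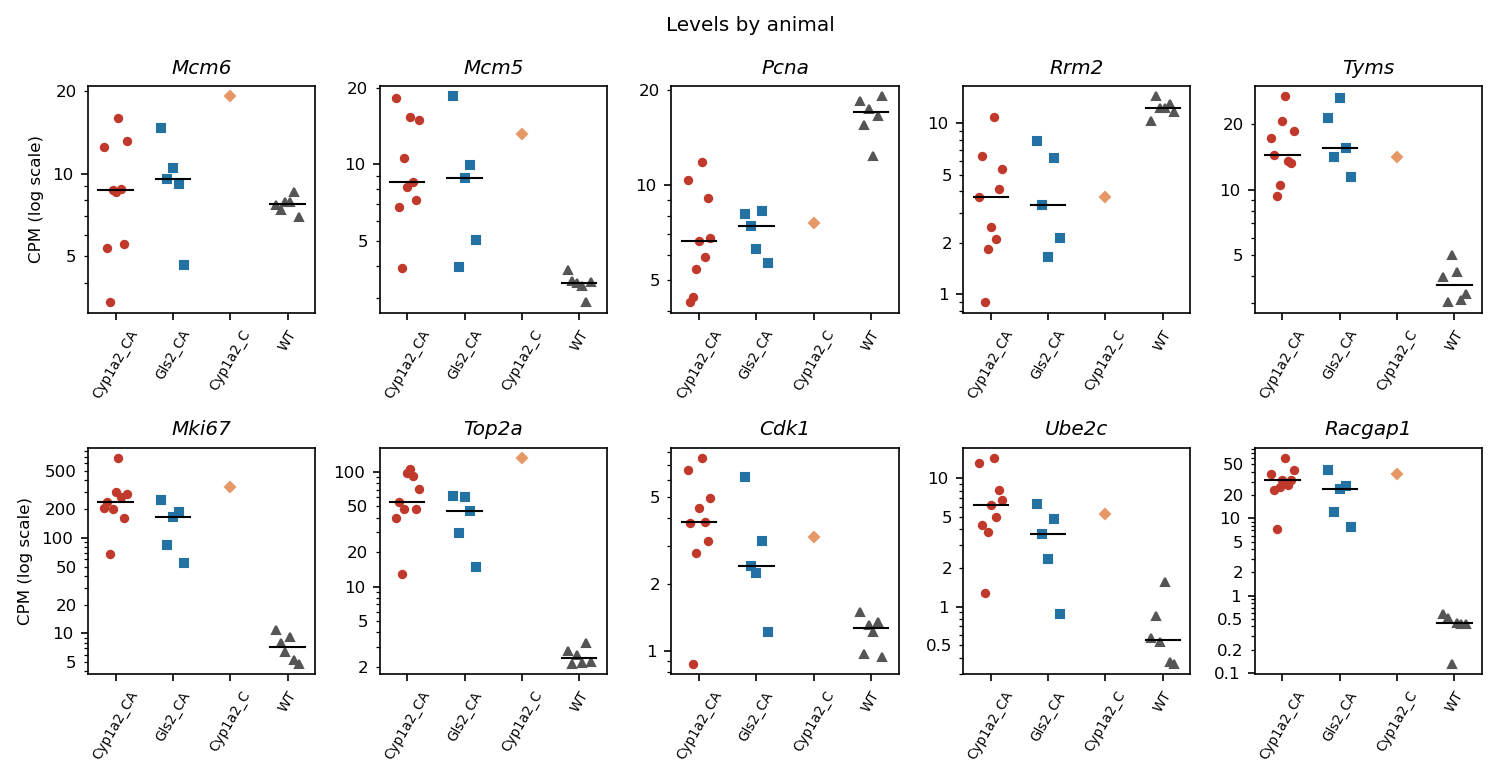
Each point is 1 animal, in CPM on a log scale, with the group median as a line, for 5 replication genes (top) and 5 mitosis genes (bottom) in Cyp1a2_CA (9), Gls2_CA (5), Cyp1a2_C (1) and WT (6). Pcna and Rrm2 are higher in WT, Mcm6 spreads around WT, and Mki67, Top2a and Racgap1 have every tumour animal above every WT animal.

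Mitosis genes of every role rose, from chromosome condensation to cell separation. Mki67, whose protein coats mitotic chromosomes and marks cycling cells, was at 66.9, 239 and 686 CPM in Cyp1a2_CA, 247, 84.7, 164, 185 and 54.3 CPM in Gls2_CA and 4.802, 7.19 and 10.8 CPM in WT. The lowest tumour animal was above the highest WT animal in both groups. The log2 fold changes were 5.10 in Cyp1a2_CA (SE 0.47, adjusted p = 9.2e-08) and 4.22 in Gls2_CA (SE 0.40, adjusted p = 2.0e-06). Top2a, the topoisomerase that untangles sister chromosomes, was at 12.95, 54.2 and 106 CPM in Cyp1a2_CA, 61.4, 29.6, 60.2, 45.2 and 14.9 CPM in Gls2_CA and 2.13, 2.39 and 3.24 CPM in WT, again with no overlap, and rose with 4.58 in Cyp1a2_CA (SE 0.42, adjusted p = 9.8e-08) and 3.99 in Gls2_CA (SE 0.35, adjusted p = 1.1e-06). Of the mitosis genes, 23 of 30 in Cyp1a2_CA and 21 of the 26 tested in Gls2_CA had every tumour animal above every WT animal, against 23.0% and 29.9% of all genes tested. Genes with few WT counts, such as Bub1 and Nuf2, passed the filter through the tumours alone, so these counts too partly follow from the filter.

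Cdk1, the kinase that starts mitosis, was among the smallest rises. It was at 0.871, 3.86 and 7.54 CPM in Cyp1a2_CA, 6.14, 2.42, 2.26, 3.15 and 1.21 CPM in Gls2_CA and 0.932, 1.27 and 1.49 CPM in WT. CAB26 and GAB294 lay inside or below the WT range and the other 12 tumour animals above it, and the log2 fold changes were 1.73 in Cyp1a2_CA (SE 0.37, adjusted p = 0.00057) and 1.22 in Gls2_CA (SE 0.36, adjusted p = 0.0090). Its partner cyclins differed in size. Ccnb1 was scarce, at 0.490, 1.26 and 2.71 CPM in Cyp1a2_CA, 1.305, 0.586, 0.576, 0.721 and 0.2495 CPM in Gls2_CA and 0, 0.0687 and 0.258 CPM in WT, where it had 0 to 4 counts per library. It rose in Cyp1a2_CA (3.85, SE 0.63, adjusted p = 4.8e-05) and did not pass the filter in the comparison of Gls2_CA. Ccna2 rose with 2.99 in Cyp1a2_CA and 2.22 in Gls2_CA, and Ccnb2 with 2.36 in Cyp1a2_CA and 1.09 in Gls2_CA, the smallest called rise there (SE 0.30, adjusted p = 0.0061). Ccna2 shares 12.5% of its exon length with Exosc9 on the opposite strand, which itself had log2 fold changes of -1.43 in Cyp1a2_CA and -1.41 in Gls2_CA. Foxm1, the activator of late cell cycle genes, was at 1.36, 5.09 and 10.8 CPM in Cyp1a2_CA, 6.23, 2.01, 5.16, 2.61 and 1.05 CPM in Gls2_CA and 0.0611, 0.450 and 0.920 CPM in WT. Its groups did not overlap, and it rose with 3.28 in Cyp1a2_CA (SE 0.51, adjusted p = 3.3e-05) and 2.64 in Gls2_CA (SE 0.60, adjusted p = 0.0019).

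The mitotic kinases and the kinetochore and checkpoint genes all rose where they were tested. Aurka, of the spindle poles, Aurkb and Birc5, of the chromosomal passenger complex, Plk1 and Melk rose by 2.13 (Aurka) to 3.06 (Plk1) in Cyp1a2_CA on the log2 scale. The 3 of them tested in Gls2_CA rose by 1.33 (Aurka, SE 0.26, adjusted p = 0.00068) to 2.04 (Plk1). The 7 kinetochore and checkpoint genes had a median of 5.02 in Cyp1a2_CA and, over the 6 tested, 4.41 in Gls2_CA. Differences between these groups of genes were not tested. Cenpf, a large protein of the outer kinetochore, was at 13.9, 56.0 and 96.9 CPM in Cyp1a2_CA, 45.0, 24.1, 33.6, 33.7 and 10.99 CPM in Gls2_CA and 0.788, 1.04 and 1.32 CPM in WT. No tumour animal came near the WT range, and it rose 49.3-fold in Cyp1a2_CA (log2 5.62, SE 0.39, adjusted p = 4.2e-09) and 26.2-fold in Gls2_CA (4.71, SE 0.34, adjusted p = 2.6e-07). The checkpoint kinases Bub1 and Ttk rose with 5.13 and 5.10 in Cyp1a2_CA and 4.43 and 4.39 in Gls2_CA. The WT libraries held 0 to 6 counts of Bub1 and 0 to 9 of Ttk. Nuf2 and Ndc80 encode partners in 1 microtubule-binding complex. Their values rest on 1 to 6 counts per WT library for Nuf2 and 2 to 8 for Ndc80, and the difference between them was not tested. Nuf2 rose with 5.02 in Cyp1a2_CA and 4.56 in Gls2_CA, while Ndc80 rose with 2.07 (SE 0.55, adjusted p = 0.0035) in Cyp1a2_CA and did not pass the filter for Gls2_CA. Aurkb and Melk also failed that filter, and without it 29 of 30 mitosis genes were called higher in Gls2_CA.

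The anaphase-promoting complex destroys cyclins to end mitosis, and its activator Cdc20 and its conjugating enzyme Ube2c both rose. Ube2c was at 1.28, 6.17 and 14.4 CPM in Cyp1a2_CA, 6.31, 3.69, 2.33, 4.81 and 0.878 CPM in Gls2_CA and 0.358, 0.550 and 1.54 CPM in WT. CAB26 and GAB294 fell inside the WT range and the other tumour animals above it, with log2 fold changes of 3.24 in Cyp1a2_CA (SE 0.52, adjusted p = 4.4e-05) and 2.25 in Gls2_CA (SE 0.52, adjusted p = 0.0019). Cdc20 rose with 3.48 in Cyp1a2_CA and 2.56 in Gls2_CA. Ube2c overlaps Tnnc2 on the opposite strand over 22.8% of its exon length, and Tnnc2 averaged 0.00613 CPM in Cyp1a2_CA, 0 in Gls2_CA and 0.0102 CPM in WT.

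The largest rises were in spindle and cytokinesis genes. Tpx2, which activates Aurora A and nucleates spindle microtubules, was at 14.5, 54.4 and 111 CPM in Cyp1a2_CA, 47.2, 29.8, 30.7, 37.1 and 10.5 CPM in Gls2_CA and 0.245, 0.514 and 1.61 CPM in WT. It rose 79.7-fold in Cyp1a2_CA (log2 6.32, SE 0.52, adjusted p = 3.3e-08) and 43.5-fold in Gls2_CA (5.44, SE 0.50, adjusted p = 1.4e-06). The other motor and binding proteins of the spindle differed: Nusap1 rose with 3.80 in Cyp1a2_CA and 2.97 in Gls2_CA, and Kif11, the motor that pushes spindle poles apart, had the smallest value of the class, 1.42 (SE 0.38, adjusted p = 0.0036) in Cyp1a2_CA and 0.76 (SE 0.36, adjusted p = 0.074, not passing) in Gls2_CA. Racgap1 and Kif23 form the centralspindlin complex at the cell midzone. Racgap1 was at 7.26, 31.2 and 60.9 CPM in Cyp1a2_CA, 41.9, 12.0, 23.8, 26.1 and 7.80 CPM in Gls2_CA and 0.131, 0.440 and 0.574 CPM in WT, where it had 2 to 10 counts per library. It rose with 6.15 in Cyp1a2_CA (SE 0.46, adjusted p = 9.8e-09) and 5.62 in Gls2_CA (SE 0.49, adjusted p = 9.5e-07), and Kif23 with 3.07 in Cyp1a2_CA and 2.36 in Gls2_CA. Prc1, which bundles midzone microtubules, was at 11.4, 53.0 and 170.1 CPM in Cyp1a2_CA, 64.1, 23.9, 32.9, 40.6 and 11.2 CPM in Gls2_CA and 0.550, 0.882 and 1.09 CPM in WT, and rose with 6.12 in Cyp1a2_CA (SE 0.53, adjusted p = 4.9e-08) and 5.23 in Gls2_CA (SE 0.42, adjusted p = 5.3e-07). Rccd1 overlaps 11.1% of Prc1's exons on the opposite strand and itself rose, with 2.54 in Cyp1a2_CA and 2.07 in Gls2_CA. The RhoA activator Ect2, the scaffold Anln and the motor Kif20a rose with 4.04, 4.09 and 3.81 in Cyp1a2_CA and 3.83, 3.21 and 2.98 in Gls2_CA. Kif20a shares 29.3% of its exon length with Cdc23 on the opposite strand, which rose with 0.54 in Cyp1a2_CA (adjusted p = 0.0049). With the length and GC offset the class median of the mitosis genes was 3.40 in Cyp1a2_CA and 2.76 in Gls2_CA, and all 6 mitosis genes whose value moved by more than 1.5 times were still called. They were Mki67 (4.24 and 3.37), Top2a (3.95 and 3.36), Ccnb2 (3.01 and 1.88), Cenpf (4.32 and 3.41) and Anln (3.39 and 2.50), each in Cyp1a2_CA and Gls2_CA, and Foxm1 (2.04) in Gls2_CA.

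**Figure D3:**
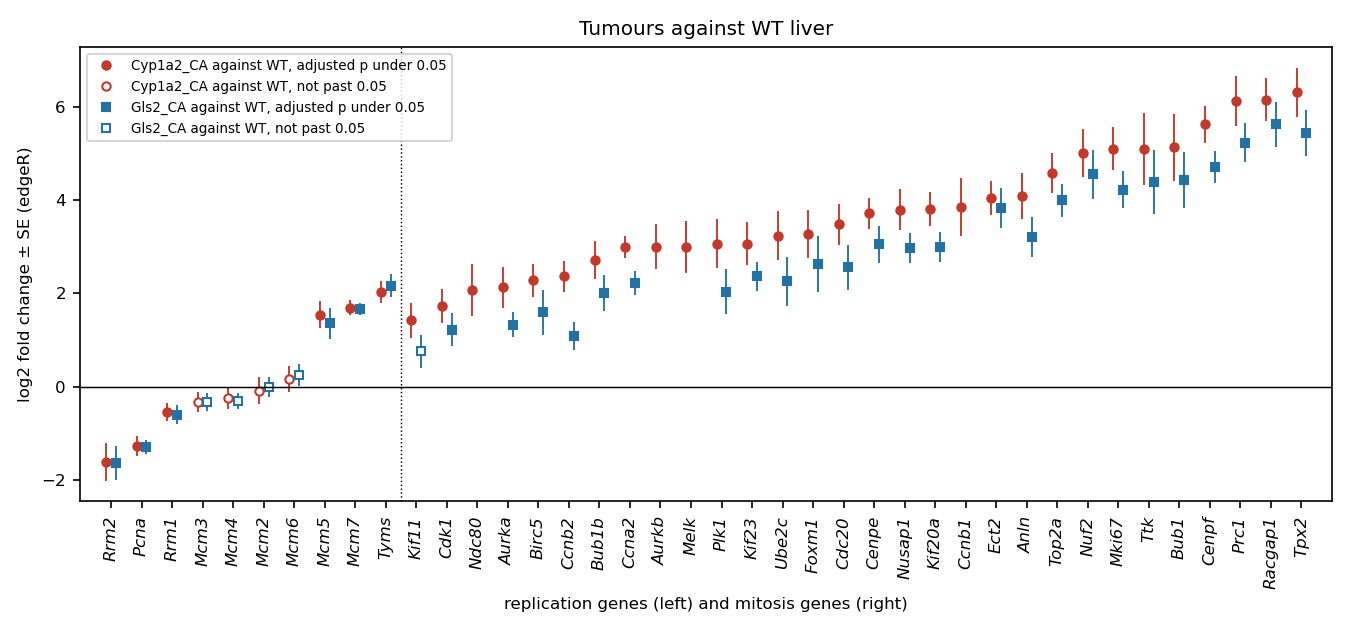
Log2 fold change against WT with its SE (edgeR) for Cyp1a2_CA (circles) and Gls2_CA (squares), for replication genes left of the dotted line and mitosis genes right of it, with open symbols where adjusted p did not pass 0.05. Replication genes run from -1.62 (Rrm2) to 2.02 (Tyms) in Cyp1a2_CA and mitosis genes from 1.42 (Kif11) to 6.32 (Tpx2). The 4 mitosis genes with no square were not tested in Gls2_CA.

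On a scale that also divides by exon length, the order of the genes differed between tumours and WT liver. In Cyp1a2_CA the highest mean levels were Mki67 (26.6 CPM per kb) and Tpx2 (12.0 CPM per kb), in Gls2_CA Mki67 (14.6) and Tpx2 (6.64), and in WT Pcna (6.92) and Rrm2 (4.42). The lowest were Ndc80 in Cyp1a2_CA (0.203 CPM per kb) and Gls2_CA (0.122), and Ccnb1 in WT (0.0205). Neighbours in these orders were not tested against each other.

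By library, the median of the mitosis genes was above WT in every tumour, while that of the replication genes lay on either side of WT. The class value of a library is the median over its genes of the log2 ratio to mean WT (0.25 CPM added). For mitosis it ran from 1.21 to 3.99 in Cyp1a2_CA, 0.65 to 3.09 in Gls2_CA, was 3.25 in Cyp1a2_C and ran from -0.43 to 0.22 in WT. For replication it ran from -0.89 to 0.58 (median -0.19) in Cyp1a2_CA, -0.73 to 0.54 (median -0.40) in Gls2_CA, was 0.79 in Cyp1a2_C and ran from -0.08 to 0.05 in WT. The tumours thus showed no overlap with WT in the first measure and straddled WT in the second. The number of mitosis genes above every WT library was 23 to 30 of 30 in Cyp1a2_CA, 17 to 30 in Gls2_CA and 30 in Cyp1a2_C. Below every WT library were Cdk1 and Ndc80 in CAB26-L and Cdk1 in GAB294-M1, and no other mitosis gene in any tumour library. Of the 10 replication genes, 2 to 7 in Cyp1a2_CA, 3 to 7 in Gls2_CA and 8 in Cyp1a2_C were above every WT library, and 1 to 7, 2 to 7 and 2 were below. Over all genes tested against WT, a single library had 41.2 to 44.8% above every WT library in Cyp1a2_CA, 43.0 to 44.6% in Gls2_CA and 42.5% in Cyp1a2_C (of the genes tested for Cyp1a2_CA), and 37.5 to 40.2%, 39.1 to 43.0% and 43.1% below.

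**Figure D4:**
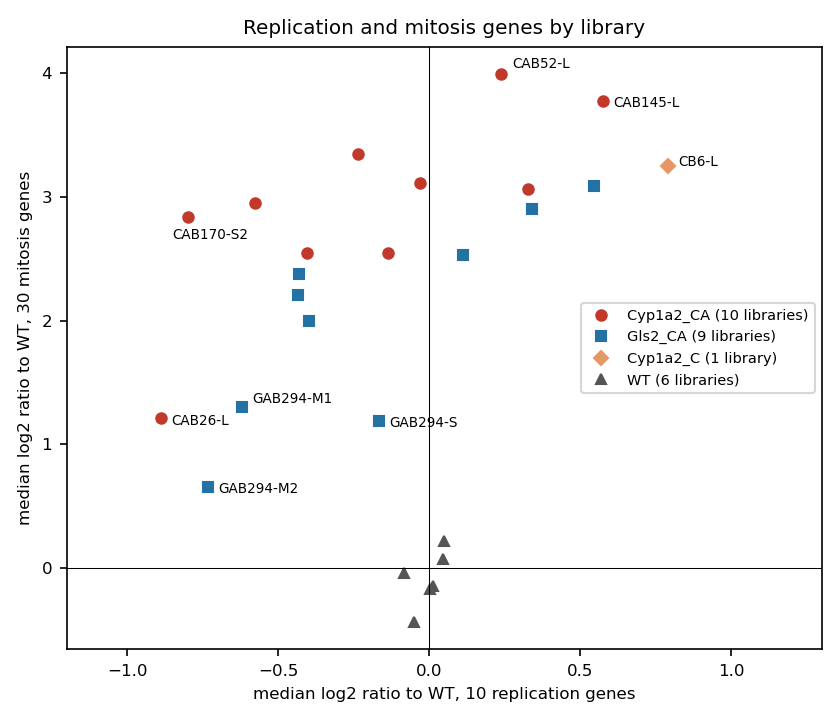
Each point is 1 library, with the median log2 ratio to WT of the 10 replication genes on the x axis and of the 30 mitosis genes on the y axis. All 20 tumour libraries lie above the WT libraries on the y axis (0.65 to 3.99 against at most 0.22) and on both sides of them on the x axis (-0.89 to 0.79).

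The same few animals marked the ends of each tumour group. CAB52 had the highest level of 23 of the 30 mitosis genes among Cyp1a2_CA animals and CAB26 the lowest of all 30. CAB26 was also lowest in 7 of the 10 replication genes, and CAB52 and CAB145 were each highest in 5. In Gls2_CA, GAB18 was highest in 26 mitosis genes and 6 replication genes, and GAB294 lowest in 28 and 6. In CAB170-S2 the replication median, -0.80, was the next to lowest of the 20 tumours, while its mitosis median of 2.84 ranked 10. The summed level of the 30 mitosis genes over that of the 10 replication genes was 3.38 (CAB26-L) to 11.8 (CAB52-L) in Cyp1a2_CA, 2.11 (GAB294-M2) to 7.07 (GAB242-L) in Gls2_CA, 7.58 in Cyp1a2_C and 0.373 to 0.520 in WT. Mki67 alone made up 25.6 to 41.8%, 25.3 to 35.8%, 36.8% and 15.6 to 26.7% of the mitosis sum in Cyp1a2_CA, Gls2_CA, Cyp1a2_C and WT, and without it the ratios were 2.22 to 6.87, 1.38 to 4.65, 4.79 and 0.304 to 0.388. The tumours' ratios did not overlap those of WT in either form.

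Libraries with the same number in their titles were taken to come from 1 animal, which the labels do not state outright, and they differed among themselves. The replication and mitosis medians were -0.14 and 2.54 in CAB28-S and -0.40 and 2.55 in CAB28-L. The 3 libraries of GAB242 were further apart, with replication medians of -0.40 (S), -0.43 (M) and 0.54 (L) and mitosis medians of 1.99, 2.37 and 3.09. Mki67 was at 119, 141 and 287 CPM and Mcm6 at 7.01, 5.58 and 14.5 CPM in those S, M and L libraries, so that GAB242-L was highest in both. The libraries of GAB294 were low in mitosis genes throughout (1.19 in S, 1.304 in M1 and 0.65 in M2), with Mki67 at 55.1, 66.3 and 40.5 CPM. GAB294-M2 had Rrm2 at 0.356 CPM against 3.23 and 3.01 CPM in S and M1, and Birc5 at 0.380 CPM against 1.87 and 0.686 CPM. The letters of the titles are not explained in the labels, and these libraries are not replicates of a condition.

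Between the driver zones no member passed the test. In Cyp1a2_CA against Gls2_CA, 0 of 17129 genes were called by edgeR (0% in either direction), with 554 genes at an unadjusted p under 0.05, and 0.0409% and 0.0525% of genes had every Cyp1a2_CA animal above or below every Gls2_CA animal, with no member among them. DESeq2 called 7 genes higher and 13 lower and limma-voom 0 and 10, none of them a member. All 30 mitosis genes had a positive log2 fold change, with a median of 0.74, from 0.21 for Ect2 to 1.26 for Ccnb2. Over all 17129 genes, 8672 had a positive value and the median was 0.00472. The mitosis genes move together across animals, so they are not 30 separate observations. The 10 replication genes had a median of 0.02, from -0.13 for Tyms to 0.19 for Mcm5. Ccnb2 was at 1.31, 3.89 and 6.94 CPM in Cyp1a2_CA, against 1.93, 1.91, 1.78, 1.55 and 0.961 CPM in Gls2_CA, and had an SE of 0.33. Mki67 had 0.88 (SE 0.47), Top2a 0.59 (SE 0.44), Cenpf 0.91 (SE 0.39), Ube2c 0.98 (SE 0.54), Ccnb1 1.00 (SE 0.44), Foxm1 0.64 (SE 0.46) and Cdk1 0.50 (SE 0.45), each with an adjusted p of 1. At an unadjusted p under 0.05 there were 5 members (Ccna2, Ccnb1, Ccnb2, Cenpf and Cdc20), all of the mitosis class. Of the replication genes, Pcna had 0.02 (SE 0.25), Rrm2 0.01 (SE 0.53), Mcm2 -0.08 (SE 0.32) and Mcm6 -0.07 (SE 0.35). With 9 against 5 animals, a p that misses the threshold does not show that the groups are alike. The median of the mitosis genes ran from 0.54 (without CAB52, and likewise without GAB294) to 0.96 (without GAB18) when animals were left out in turn, and was 0.87 without CAB26 and 0.47 with limma-voom. Some marker lists of cell types also leaned in this comparison, though not in the same direction. A positive log2 fold change was seen in 10 of 10 stellate and fibroblast (median 0.57), 7 of 8 hepatocyte (0.36) and 0 of 11 macrophage markers (-0.34). In the remaining lists it was seen in 7 of 9 endothelial (0.10), 2 of 7 lymphocyte (-0.20), 3 of 6 cholangiocyte (-0.13) and 2 of 5 erythroid markers (-0.17). None of these markers was called. Their part in the mitosis values was not tested.

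The Cyp1a2_C tumour had no replicate and no test. CB6-L had Mki67 at 337 CPM, Top2a at 133 CPM, Cenpf at 71.8 CPM, Tpx2 at 58.0 CPM and Racgap1 at 37.8 CPM, and 30 of 30 mitosis genes above every WT library, against 42.5% of all genes. Its Top2a level was above all Cyp1a2_CA and Gls2_CA animals, and so were Mcm2 (8.24 CPM), Mcm4 (9.77 CPM), Mcm6 (19.1 CPM) and Rrm1 (12.4 CPM). Pcna (7.59 CPM) and Rrm2 (3.69 CPM) were below every WT library, as in all 14 other tumour animals for Pcna and 13 of them for Rrm2. CB6-L is also 1 of the libraries with high Ttn and had the lowest sum of hepatocyte markers.

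Other genes of the same pathways, listed with earlier results of these data known, were counted in the same way. Of 49 further replication genes, 25 rose and 13 fell in Cyp1a2_CA (median log2 fold change 0.63) and 21 rose and 14 fell in Gls2_CA (0.46). Over all genes tested, 38.3% were higher and 32.7% lower in Cyp1a2_CA, and 39.2% and 34.0% in Gls2_CA, so the Gls2_CA counts were close to these shares. In Cyp1a2_CA the share that rose was above that of all genes and the share that fell was below it. The medians of all genes were 0.17 in Cyp1a2_CA and 0.14 in Gls2_CA, so these further genes leaned upward, unlike the replication members. Claspin (Clspn, a mediator of the replication checkpoint), the origin-firing kinase Cdc7 and the methylation maintenance factor Uhrf1 had the largest rises in Cyp1a2_CA, 3.88, 3.66 and 3.33, and Clspn (3.51), Cdc7 (3.51) and the helicase loader Cdc6 (3.39) in Gls2_CA. Among the largest falls were those of Mcm10 (-2.05) and Pold1 (-1.56) in Cyp1a2_CA and of Mcm10 (-2.56) and the GINS subunit Gins4 (-1.74) in Gls2_CA. Pold1 is the catalytic subunit of polymerase delta and Mcm10 is a factor that helps to start the helicase. With the length and GC offset Pold1 moved to -2.34 in Cyp1a2_CA and Gins4 to -0.96 in Gls2_CA.

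Of 65 further mitosis genes, 56 rose and 3 fell in Cyp1a2_CA (median 2.66), and of the 60 tested in Gls2_CA 50 rose and 3 fell (2.37). Among all genes tested, 38.3% rose and 32.7% fell in Cyp1a2_CA, and 39.2% and 34.0% in Gls2_CA. Genes with few or no WT counts, such as Depdc1a in Cyp1a2_CA, passed the filter through the tumours alone and could hardly have been called lower. The counts of rises therefore partly follow from the filter. The phosphatase Cdc25c, which activates Cdk1, rose with 7.17 in Cyp1a2_CA and 6.71 in Gls2_CA, the citron kinase gene Cit with 6.36 in Cyp1a2_CA and 5.63 in Gls2_CA, and the kinesin Kif2c with 6.28 in Cyp1a2_CA and 5.34 in Gls2_CA. Depdc1a had no count in any WT library and was at least 47.1-fold higher in Cyp1a2_CA, taking 3 counts in the whole WT group (0.0319 CPM) as the floor. The same 3 genes fell in both comparisons: Cks2 (-1.52 in Cyp1a2_CA and -1.82 in Gls2_CA), Cks1b (-1.47 in Cyp1a2_CA and -1.79 in Gls2_CA), both small partners of Cdk1, and Ccnf (-0.71 in Cyp1a2_CA and -1.203 in Gls2_CA), an F-box cyclin. With the length and GC offset Cks2 (-0.63, adjusted p = 0.051) and Cks1b (-0.75, adjusted p = 0.060) no longer passed in Cyp1a2_CA, and moved to -0.65 and -0.93 in Gls2_CA. Under the same offset Cit moved to 4.43 in Cyp1a2_CA and 3.34 in Gls2_CA, and Ccnf to -1.51 in Cyp1a2_CA and -2.02 in Gls2_CA.

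The regulators of these genes were also listed. Of 22 E2F, DP, pocket protein, MuvB and NF-Y genes, 13 rose and 2 fell in each comparison, with medians of 0.98 in Cyp1a2_CA and 0.91 in Gls2_CA. The shares of all genes tested were 38.3% higher and 32.7% lower in Cyp1a2_CA, and 39.2% and 34.0% in Gls2_CA. The dimer partners Tfdp2 (3.46 in Cyp1a2_CA and 3.12 in Gls2_CA) and Tfdp1 (2.10 in Cyp1a2_CA and 1.89 in Gls2_CA) and the MuvB subunit Lin54 (1.997 in Cyp1a2_CA and 2.17 in Gls2_CA), which reads the CHR, were among those that rose, as was the NF-Y subunit Nfya (1.71 in Cyp1a2_CA and 1.91 in Gls2_CA). Rbbp4 (-1.15 in Cyp1a2_CA and -1.48 in Gls2_CA) and the repressor E2f4 (-0.81 in Cyp1a2_CA and -1.11 in Gls2_CA) fell. With the length and GC offset Tfdp2 moved to 2.19 in Cyp1a2_CA and 1.76 in Gls2_CA, Nfya to 1.09 in Cyp1a2_CA and 1.25 in Gls2_CA, and Rbbp4 to -1.79 in Cyp1a2_CA and -2.12 in Gls2_CA, all still called. E2f1, an activator of S phase genes, did not pass, with 0.36 in Cyp1a2_CA (adjusted p = 0.20), nor did its 0.44 in Gls2_CA (adjusted p = 0.13). Mybl2, which encodes B-Myb, had 1.73 in Cyp1a2_CA (adjusted p = 0.050, not passing) and rose with 1.86 in Gls2_CA (adjusted p = 0.011).

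Marker lists of cell types were counted as well, and their part in these results was not tested. Over all genes tested, 38.3% were higher and 32.7% lower in Cyp1a2_CA, and 39.2% and 34.0% in Gls2_CA. Some counts lay near these shares, such as 4 of 10 stellate and fibroblast markers lower and 3 of 7 cholangiocyte markers higher in Cyp1a2_CA. Lymphocyte markers, 12 in number, summed to 26.9 to 78.3 CPM in Cyp1a2_CA, 23.4 to 153.5 CPM in Gls2_CA, 38.0 CPM in Cyp1a2_C and 17.7 to 21.4 CPM in WT. Of the 9 tested in Cyp1a2_CA 1 rose and 2 fell, and of the 4 tested in Gls2_CA 1 rose and 1 fell. The gene that rose was Ptprc in both, which is not limited to lymphocytes. Among those at 0 in CB6-L was Ms4a1. Macrophage markers summed to 79.5 to 261 CPM, 75.4 to 303 CPM and 139 CPM in Cyp1a2_CA, Gls2_CA and Cyp1a2_C, below the 326 to 399 CPM of WT, with 0 of 11 higher and 6 lower in Cyp1a2_CA and 2 higher and 7 lower in Gls2_CA. Endothelial markers summed to 206 to 350.0 CPM, 192 to 332 CPM and 312 CPM, against 395 to 457 CPM in WT, with 2 of 9 higher and 6 lower in Cyp1a2_CA and 1 and 6 in Gls2_CA. Stellate and fibroblast markers spanned 152 to 815 CPM, 100.3 to 336 CPM and 1398 CPM, against 412 to 500.4 CPM in WT (1 of 10 higher and 4 lower in Cyp1a2_CA, 0 and 7 in Gls2_CA). Cholangiocyte markers spanned 14.9 to 174 CPM, 12.9 to 152 CPM and 311 CPM, against 29.9 to 50.2 CPM (3 of 7 higher in Cyp1a2_CA, 3 of 6 tested higher and 1 lower in Gls2_CA). Erythroid markers spanned 10.5 to 85.1 CPM, 8.14 to 86.2 CPM and 63.8 CPM, against 77.1 to 120.7 CPM (4 of 6 tested lower in Cyp1a2_CA, 1 of 5 lower in Gls2_CA). Of the hepatocyte markers, 6 of 8 fell in each comparison.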

How the data were processed

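RNA was sequenced from 26 libraries, made with a Nugen Ovation kit from DNase-treated RNA of frozen tumour fragments, per the labels' protocols, which give WT the same text. The authors deposited 1 table of raw, whole-number read counts for each gene symbol, and the build was mm10 per the submitters' processing notes. No aligner, counting program or strand setting is given in the sources used here. Counts were summed over libraries with 1 animal number, as read from the titles (an assumption), which makes the animal number the unit whose spread the p-values measure. edgeR 4.0.16 (R 4.3.3) was run separately on every pair of groups except those with Cyp1a2_C (filterByExpr, TMM, robust quasi-likelihood test, Benjamini-Hochberg adjustment, threshold 0.05). Exon length and GC content came from GENCODE M21 for 26763 genes (74.4%). Alternatives were other scalings, filters and replicate units, DESeq2 1.42.0, limma 3.58.1 (voom with quality weights), an offset for length and GC, thinning to WT depth, and leaving out libraries or animals. Of the other lists' 201 symbols all were found, 4 under older symbols. The members and lists were chosen with earlier results of these data known. The genes named are 13 set genes, the 3 largest and 3 smallest changes per class, any member moving against its class, and the 3 largest and smallest called changes of the other lists. Some genes that this rule names are not reported here.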

Additional observations from a re-analysis of the deposited data

Results flagged for a closer look

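In groups of 5 to 9 animals, an animal was singled out where its distance to the nearest other animal was a large share of the group's range (Dixon's 95% critical value). Of 120 combinations of a group and a member 11 did so. The rule's rate of about 1 in 20 holds for independent, normally distributed values. These genes move together across animals, so the count cannot be judged against that rate. CAB52 was the highest Cyp1a2_CA animal in 6 of them: Mki67 at 686 CPM (next 299.7), Prc1 at 170.1 CPM (next 69.7), Aurka at 33.8 CPM, Ttk at 22.1 CPM, Plk1 at 13.8 CPM and Ndc80 at 3.23 CPM. CAB26 was the lowest Cyp1a2_CA animal for Ccna2, at 7.65 CPM (next 16.7), and for Cenpe, at 5.66 CPM (next 15.5). CAB145 was the highest for Mcm7, at 42.7 CPM (next 30.4), the single replication gene among the 11. In WT, WT_Cre-BL1 had the highest Tpx2, 1.61 CPM (next 0.642), and WT_Cre-BL3 the lowest Racgap1, 0.131 CPM (next 0.428), values that rest on 28 and 2 counts. Leaving out CAB52, CAB26 or CAB145 changed no call of a member in Cyp1a2_CA against WT.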

How the results depend on the processing

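In Cyp1a2_CA against WT, 30 of 30 mitosis genes were called higher under every setting except the stricter filter on low counts (29), and in Gls2_CA against WT 25 to 29. The replication genes called higher numbered 3 in every setting, except 4 in Gls2_CA without GAB294. The replication genes called lower moved with the setting, and the cause was not tested: 6 with limma-voom in Cyp1a2_CA, and 5 with upper-quartile factors and 5 with limma-voom in Gls2_CA, against 3. Upper-quartile factors shifted the median of all genes to -0.05 and -0.09, against 0.17 and 0.14 with TMM, and limma-voom to -0.0001 and 0.02. Leaving out each animal gave 30 to 30 and 25 to 29 mitosis genes higher, 3 to 3 and 3 to 4 replication genes higher, and 3 to 3 and 3 to 4 lower, in Cyp1a2_CA and Gls2_CA. No member changed sign while called. Members that passed under some alternative and not in the reported fit were Mcm2, Mcm3 and Mcm4 in Cyp1a2_CA, and Mcm2, Mcm3, Mcm4, Mcm6 and Kif11 in Gls2_CA. Mcm6 (0.43, adjusted p = 0.029) and Kif11 (0.96, adjusted p = 0.017) did so without GAB294, Kif11 also without WT_Cre-BL4, and Mcm4 (-0.41, adjusted p = 0.025) without GAB235. Between Cyp1a2_CA and Gls2_CA no member was called under any setting. No paired analysis was possible because the labels give the groups no shared replicate numbers. WT libraries had at most 16975288 counts, against at least 36992043 in the tumours, which limits precision for members with few WT counts, and thinning the tumours to WT depth left the counts of called members as they were.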
